A study of Mus musculus with 8 samples.

Results

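The 7 genes described here encode enzymes that attach a sugar or a sulfate group to small molecules. They are the UDP-glycosyltransferases Ugt1a1, Ugt1a2, Ugt1a6a and Ugt8a and the sulfotransferases Sult1a1, Sult1e1 and Sult4a1. These were taken by gene symbol from a table of 24499 symbols and 49139 transcripts, in which they have 13 transcripts. The genes were picked with their group differences already known, so those differences are given as a description.

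RNA was sequenced from 4 testes labelled Dio3KO and from 4 wild-type testes, by the study's title to find genes of the neonatal testis that thyroid hormone regulates. All 8 samples came from postnatal day 5 and from the 129/SVJ background, and no treatment is labelled for either group. Dio3 is the deiodinase that inactivates thyroid hormones, and the labels describe neither the altered allele nor whether a sample pooled animals. Each deposited level is a mean over the group in RPKM, reads adjusted for the length of the transcript and the size of the library, with a coefficient of variation (CV, the SD divided by the mean). The value of a single sample was therefore not used, whether the groups overlapped could not be seen, and the depth per sample is unknown.

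UDP-glucuronosyltransferases of the Ugt1a and Ugt2 families move glucuronic acid from UDP-glucuronate onto hormones, bilirubin and drugs, which makes these water-soluble and ready for export. Cytosolic sulfotransferases do the same with sulfate taken from the donor PAPS. Both reactions also act on iodothyronines: in liver, glucuronidation sends thyroxine into bile, and sulfation speeds the breakdown of thyroid hormones by deiodination. In rodent testis the best known member is Sult1e1, the estrogen sulfotransferase of Leydig cells.

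Dio3 itself was at 2.95 RPKM (CV 0.29) in Dio3KO-labelled testes and 0.52 RPKM (CV 0.20) in wild-type testes, and the authors' deposited table gives an adjusted p of 0.0408. The targeted gene was thus higher in the group labelled as its knockout, and every direction below rests on that label. The extraction text names hypothalami, but hypothalamic markers were near absent: the 14 in the table ran from 0.01 to 0.93 RPKM in the Dio3KO-labelled group and from 0.03 to 1.49 RPKM in wild type. Testicular markers were abundant in both groups, with 8 Sertoli cell markers between 9.49 and 494 RPKM in Dio3KO-labelled testes and between 12.1 and 477 RPKM in wild-type testes.

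The Ugt1a genes are alternative starts of a single locus on the plus strand of chromosome 1. In GENCODE M21 (GRCm38, the assembly of mm10), Ugt1a6a (ENSMUSG00000054545.17) begins at 88134809, Ugt1a2 (ENSMUSG00000090171.1) at 88200601 and Ugt1a1 (ENSMUSG00000089960.1) at 88211959, and all of them end at 88218997. Each gene has a first exon of its own, which encodes the part of the enzyme that binds the substrate, and splices it to the same downstream exons, which encode the part that binds UDP-glucuronate. All 9 annotated Ugt1a genes join the shared exons at the same base. The last 30 bases of the first exons, just before that junction, are shown because only the first exons can tell the genes apart, which decides what a level of a single Ugt1a gene can mean.
Ugt1a1: aattgccttcagaaaaagcccctatcccag
Ugt1a2: aactgtgttaccaagaagcccctctctcag
Ugt1a6a: aactgtaagaagaagggaaagctgactcag
Ugt1a6b: aactgtaagaagaagggaaagctgactcag
Ugt1a9: aactgcctccagaagaagtcactttccaag
Ugt1a6b, a neighbour outside the 7, has the same 30 bases as Ugt1a6a, as does 1 annotated form of Ugt1a7c. Ugt1a5, another neighbour, has the same 30 bases as Ugt1a2, so that neither Ugt1a2 nor Ugt1a6a is unique in this stretch, while the lines of Ugt1a1 and Ugt1a9 match no other gene of the locus.

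Shared exons made up 58.9% of the annotated length of Ugt1a1, 59.3% of that of Ugt1a2 and 57.9% or 57.1% of that of the 2 full-length forms of Ugt1a6a. A read from these exons cannot be given to any single member. Over their whole length, the first exons of Ugt1a6a and Ugt1a6b were 95.1% identical, against 58.1% for Ugt1a1 and Ugt1a6a and 59.5% for Ugt1a1 and Ugt1a2. The unnamed antisense gene Gm20528 also overlaps annotated exons, by 922 bases for Ugt1a1 and 394 bases each for Ugt1a2 and Ugt1a6a. The sources used here do not say if the counting used strand.

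All 3 Ugt1a members were higher in Dio3KO-labelled testes, by about the same factor. Ugt1a1, the bilirubin-conjugating enzyme, was at 10.28 RPKM (CV 0.07) in Dio3KO-labelled testes and 5.67 RPKM (CV 0.10) in wild-type testes, a ratio of 1.81. Its log2 ratio, with 0.5 RPKM added to each mean, was 0.81 ± 0.08 (SE from the CVs, with 4 samples per group), and the authors' deposited table lists an adjusted p of 0.0039. With CVs of at most 0.10, the gap between the means was several times the SD within either group.

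Ugt1a2, a bilirubin transferase gene in rat, had almost the values of Ugt1a1. It was at 10.33 RPKM (CV 0.07) in Dio3KO-labelled testes and 5.72 RPKM (CV 0.10) in wild-type testes. The ratio was 1.81 and the log2 ratio 0.80 ± 0.08 (SE from the CVs), beside an adjusted p of 0.0042 that the authors' deposited table lists.

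Ugt1a6a, which conjugates small planar phenols, had the highest level of the Ugt1a members. Its first transcript was at 14.37 RPKM (CV 0.06) in Dio3KO-labelled testes and 8.22 RPKM (CV 0.08) in wild-type testes. Its other transcript was at 14.20 RPKM (CV 0.06) in Dio3KO-labelled testes and 8.12 RPKM (CV 0.09) in wild-type testes. Both gave a ratio of 1.75 and a log2 ratio of 0.77 ± 0.07 (SE from the CVs), with adjusted p values of 0.0034 and 0.0036 in the authors' deposited table. A separate transcript listed under Ugt1a6, an older symbol of the same gene in RefSeq, was at 6.01 RPKM in Dio3KO-labelled testes and 3.62 RPKM in wild-type testes.

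**Figure D1:**
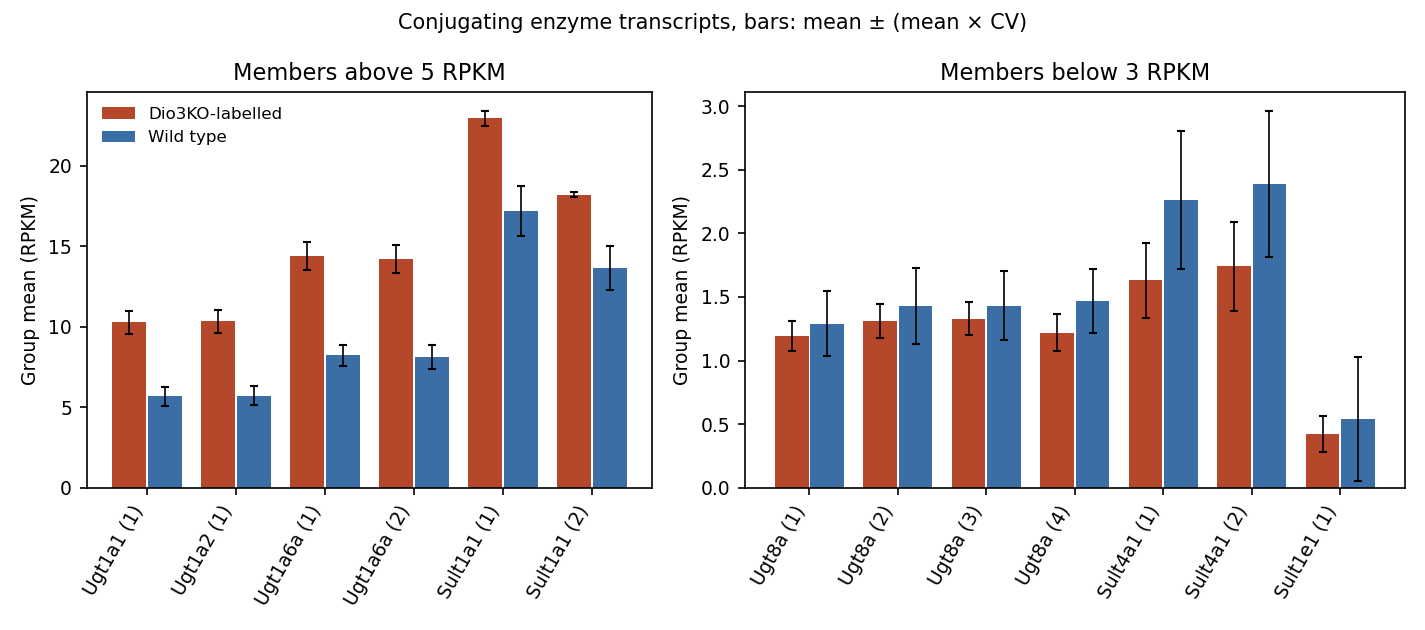
Group means in RPKM of the 13 transcripts, Dio3KO-labelled testes in red and wild-type testes in blue, with bars of the mean times the deposited CV on either side. The left panel holds the members above 5 RPKM, all higher in Dio3KO-labelled testes, and the right panel those below 3 RPKM, whose bars overlap between groups.

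How far the Ugt1a values are separate measurements was examined by undoing the scaling to length. RPKM times the annotated length in kilobases gives RPM, reads adjusted for library size alone, and this product was computed for the 5 Ugt1a genes with 1 annotated full-length form, Ugt1a1, Ugt1a2, Ugt1a5, Ugt1a9 and Ugt1a10. It ran from 22.8 to 23.0 RPM in Dio3KO-labelled testes and from 12.6 to 12.7 RPM in wild-type testes. The highest of the 5 exceeded the lowest by 1.07% in Dio3KO-labelled testes and by 0.612% in wild-type testes, less than the 1.85% and 1.95% by which their RPKM differed. The deposited levels of Ugt1a1 and Ugt1a2 thus differed from each other, and from those of the other 3, by little more than their annotated lengths. They are read here as about a single value, the level of the locus, with a ratio of medians of 1.81.

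Ugt1a6a stood above that common value in both groups. Its product was 32.2 to 33.0 RPM in Dio3KO-labelled testes and 18.4 to 18.9 in wild-type testes, depending on which of its 2 annotated lengths goes with which transcript. That is 9.3 to 10.1 RPM over the median of the 5 genes in Dio3KO-labelled testes and 5.8 to 6.3 in wild-type testes, a ratio of 1.61 to 1.62. Ugt1a6b, whose first exon is nearly the same, stood 20.3 to 21.3 RPM over that median in Dio3KO-labelled testes and 12.0 to 12.6 in wild-type testes, a ratio of 1.68 to 1.69. These differences carry no error, because the CVs do not say how transcripts of the same sample vary together. Ugt1a7c also stood above the common value, at 38.4 to 39.3 RPM in Dio3KO-labelled testes and 20.5 to 21.0 in wild-type testes. Its ratio of mean RPKM was 1.87, above that of the 5 genes. Its annotated forms end in a longer last exon, so no surplus over the 5 was computed for it. The lengths are those of GENCODE, and neither the lengths nor the rule for shared reads that the authors used is known here.

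**Figure D2:**
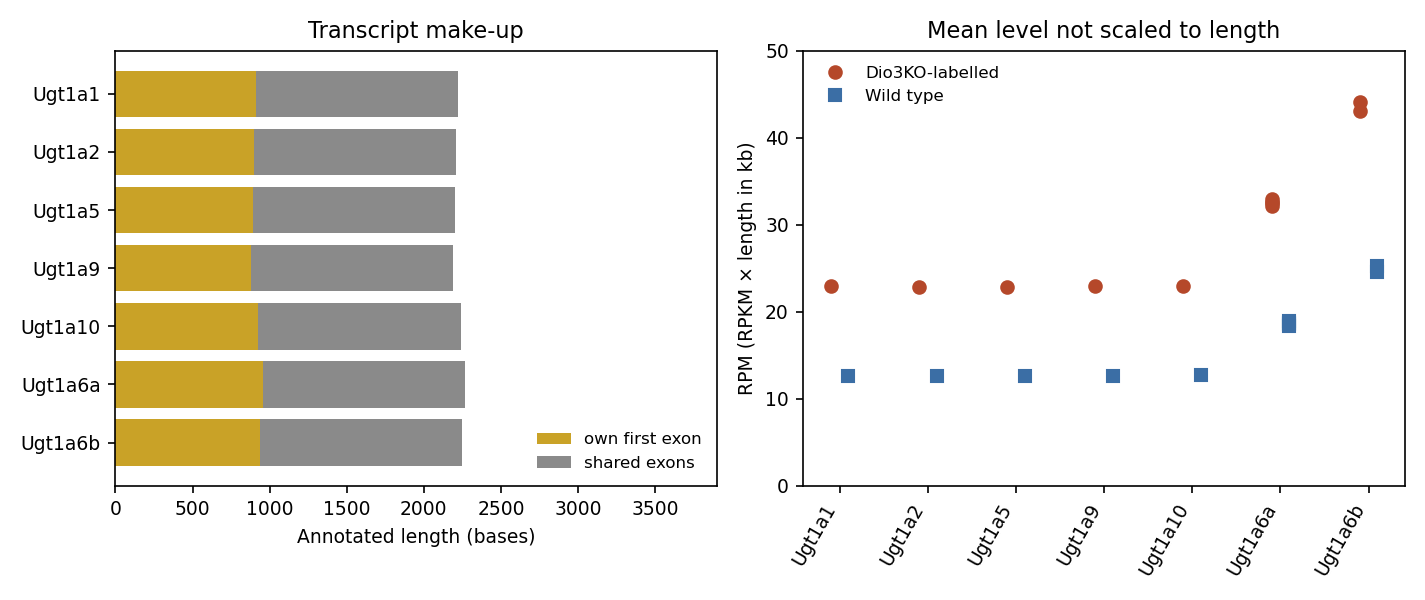
The left panel shows annotated transcript length in bases, split into the own first exon and the shared exons (Ugt1a7c, whose annotated forms end in a longer last exon, is left out), and the right panel the group mean times that length, in RPM, with several points where annotated lengths differ. Ugt1a1, Ugt1a2, Ugt1a5, Ugt1a9 and Ugt1a10 lie on a flat line at 22.8 to 23.0 in Dio3KO-labelled testes (circles) and 12.6 to 12.7 in wild-type testes (squares), and Ugt1a6a and Ugt1a6b stand above it.

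Sult1a1, the phenol sulfotransferase that also sulfates iodothyronines, had the highest level of the 7 genes. It is ENSMUSG00000030711.16, on the minus strand of chromosome 7 from 126672865 to 126676432, and its annotated exons share 61 bases with Sgf29 on the other strand. Its first transcript was at 22.95 RPKM (CV 0.02) in Dio3KO-labelled testes and 17.17 RPKM (CV 0.09) in wild-type testes. The second was at 18.21 RPKM (CV 0.01) in Dio3KO-labelled testes and 13.67 RPKM (CV 0.10) in wild-type testes. The ratios were 1.34 and 1.33, the log2 ratios 0.41 ± 0.06 and 0.40 ± 0.07 (SE from the CVs), and the authors' deposited table lists adjusted p values of 0.0205 and 0.0297. Both transcripts were higher in the Dio3KO-labelled group, by a smaller factor than the Ugt1a locus, and the wild-type samples varied more around their mean.

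Ugt8a (ENSMUSG00000032854.12, minus strand of chromosome 3, 125865271 to 125938619) differs from the other transferases in its donor and its product. It adds galactose to lipids, ceramide among them, and so makes the galactolipids of myelin and the precursor of the sulfated lipids of testis. Its 4 transcripts were at 1.19 to 1.33 RPKM in Dio3KO-labelled testes and 1.29 to 1.47 RPKM in wild-type testes. CVs were 0.10 to 0.12 in Dio3KO-labelled testes and 0.17 to 0.21 in wild-type testes. The log2 ratios ran from -0.20 to -0.08, and the SEs of 0.11 to 0.12 (from the CVs) are as large as most of these differences. The authors' deposited table lists adjusted p values of 0.2444 to 0.5416, so no difference was detectable for Ugt8a at this spread.

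Sult4a1 (ENSMUSG00000018865.9, minus strand of chromosome 15, 84076097 to 84105754), a brain-enriched sulfotransferase with no established substrate, was the other weakly expressed member. It was at 1.63 RPKM (CV 0.18) and 1.74 RPKM (CV 0.20) in Dio3KO-labelled testes, against 2.26 RPKM (CV 0.24) and 2.39 RPKM (CV 0.24) in wild-type testes. The ratios were 0.72 and 0.73 and both log2 ratios -0.37, with SEs of 0.17 and 0.18 (from the CVs). The authors' deposited table lists adjusted p values of 0.1751 and 0.1909. The lower mean in Dio3KO-labelled testes did not pass the threshold of 0.05.

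Sult1e1 (ENSMUSG00000029272.8, minus strand of chromosome 5, 87575969 to 87591594), which inactivates estrogens, was barely detected. Its mean was 0.42 RPKM (CV 0.34) in Dio3KO-labelled testes and 0.54 RPKM (CV 0.91) in wild-type testes, and the log2 ratio was -0.18 ± 0.36 (SE from the CVs). With a CV of 0.91, the 4 wild-type samples spread nearly as far as their mean. The authors' deposited table lists an adjusted p of 0.6104, and a difference was not detectable at this level.

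By mean RPKM, a scale per length, the order of the members' best expressed transcripts in wild-type testes was Sult1a1, Ugt1a6a, Ugt1a2, Ugt1a1, Sult4a1, Ugt8a and Sult1e1. The Ugt1a2 and Ugt1a1 means are neighbours that do not differ beyond their spread in either group, and differ by little more than their annotated lengths. Both stand for about the level of the locus, so neither ranks its own gene against the other members. Reads of the shared exons can also enter the mean of Ugt1a6a. The order was the same in Dio3KO-labelled testes, where the Sult4a1 and Ugt8a means were also close, Sult4a1 at 1.74 RPKM (CV 0.20) and Ugt8a at 1.33 RPKM (CV 0.10).

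Of the 13 transcripts, 12 from 6 genes reached 1 RPKM in either group, the level above which calls were counted, and Sult1e1 did not. At a threshold of 0.05 on the adjusted p of the authors' deposited table, 6 of these 12 were higher and 0 were lower. Over all 35030 transcripts of that level, the authors' deposited table has 13.9% higher and 15.7% lower at the same threshold. By gene, the 6 transcripts belong to 4 members, of which 3 share the Ugt1a locus, so that about 2 separate loci were higher. A moderated limma test computed from the means and CVs, with Benjamini-Hochberg adjustment over all transcripts, called 6 of the 12 higher and 0 lower, where it called 18.7% of all transcripts higher and 23.3% lower. No member transcript reached a ratio of 2 in either direction, a size that 1.31% of all transcripts reached upwards and 0.505% downwards. The largest limma adjusted p among the Ugt1a members was 1.51e-05, those of Sult1a1 were 0.000307 and 0.000519, and those of Sult4a1 were 0.0553 and 0.0671. Because the genes were chosen from this comparison, nothing is read from these counts.

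In these whole testes, fewer cells of a type and less RNA per cell cannot be told apart. Markers of other cells moved beside the members. All 7 macrophage markers had higher means in Dio3KO-labelled testes, 5 of them past the threshold, and they summed to 102 RPKM in Dio3KO-labelled testes and 53.6 RPKM in wild-type testes. Endothelial markers summed to 62.8 RPKM in Dio3KO-labelled testes and 50.5 RPKM in wild-type testes, and all 6 had higher means in the Dio3KO-labelled group, 3 of them past the threshold. Leydig cell markers summed to 643 RPKM in Dio3KO-labelled and 472 RPKM in wild-type testes, with 2 of 7 higher and 1 lower at the threshold. Sertoli cell markers summed to 1311 RPKM in Dio3KO-labelled testes and 1460 RPKM in wild-type testes (1 higher and 3 lower of 8 at the threshold). Germ cell markers summed to 210 RPKM in Dio3KO-labelled and 235 RPKM in wild-type testes. All 6 had lower means in the Dio3KO-labelled group, with a median log2 ratio of -0.26, and 0 of them passed the threshold. Peritubular myoid markers summed to 527 RPKM in Dio3KO-labelled and 574 RPKM in wild-type testes (2 higher and 1 lower of 5 at the threshold). The part of any of these cell types in the level of a member was not tested.

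Schwann cell and myelin markers bear on Ugt8a, which makes the galactolipids of myelin. The 10 markers summed to 64.1 RPKM in Dio3KO-labelled testes and 60.8 RPKM in wild-type testes, with 1 higher and 1 lower at the threshold of the 5 that reached 1 RPKM. The defining markers Sox10 (0.50 RPKM in Dio3KO-labelled testes and 0.56 RPKM in wild type) and Foxd3 (0.05 RPKM in Dio3KO-labelled testes and 0.04 RPKM in wild type) were near 0. Markers of adjoining or contaminating tissue were low for epididymis, at a sum of 1.15 RPKM in Dio3KO-labelled testes and 0.260 RPKM in wild type, and for liver, at 6.82 RPKM in Dio3KO-labelled testes and 8.40 RPKM in wild type. Adrenal cortex markers summed to 13.4 RPKM in Dio3KO-labelled testes and 18.7 RPKM in wild-type testes, a sum of genes that moved in opposite directions. Mrap, at 8.26 RPKM in Dio3KO-labelled testes and 2.38 RPKM in wild type, rose, and the steroid 21-hydroxylase gene Cyp21a1, at 4.80 RPKM in Dio3KO-labelled testes and 11.98 RPKM in wild type, fell. Cyp11b1, at 0.13 RPKM (CV 0.75) in Dio3KO-labelled testes and 3.54 RPKM (CV 0.66) in wild type, did not pass the threshold. The moderated limma test gave it an adjusted p of 0.000481. Of the 3 adrenal markers that reached 1 RPKM, 1 thus had a higher and 2 a lower mean in Dio3KO-labelled testes. The adrenal markers below that level also had lower means there.

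Among the other genes of both enzyme families, most were scarcely expressed. In brackets, KO stands for Dio3KO-labelled and WT for wild-type testes. Of 20 family genes of the UDP-glycosyltransferases in the table, 9 reached 1 RPKM, and these were 8 genes of the Ugt1a locus and Ugt8a. The Ugt2a, Ugt2b and Ugt3a genes had means of at most 0.32 RPKM in Dio3KO-labelled testes and 0.13 RPKM in wild-type testes, the highest being Ugt3a2, a transferase that uses other sugars in place of glucuronic acid. All 8 Ugt1a genes matched in the table rose, beside 14.0% of all 15225 genes of at least 1 RPKM in the authors' deposited table, but they stand for about 1 locus. The moderated limma test called 18.6% of these genes higher and 23.2% lower, and a ratio of 2 was reached upwards by 1.56% and downwards by 0.742% of them. The family's median log2 ratio of 0.80, against -0.05 over all genes, is that of the same locus.

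**Figure D3:**
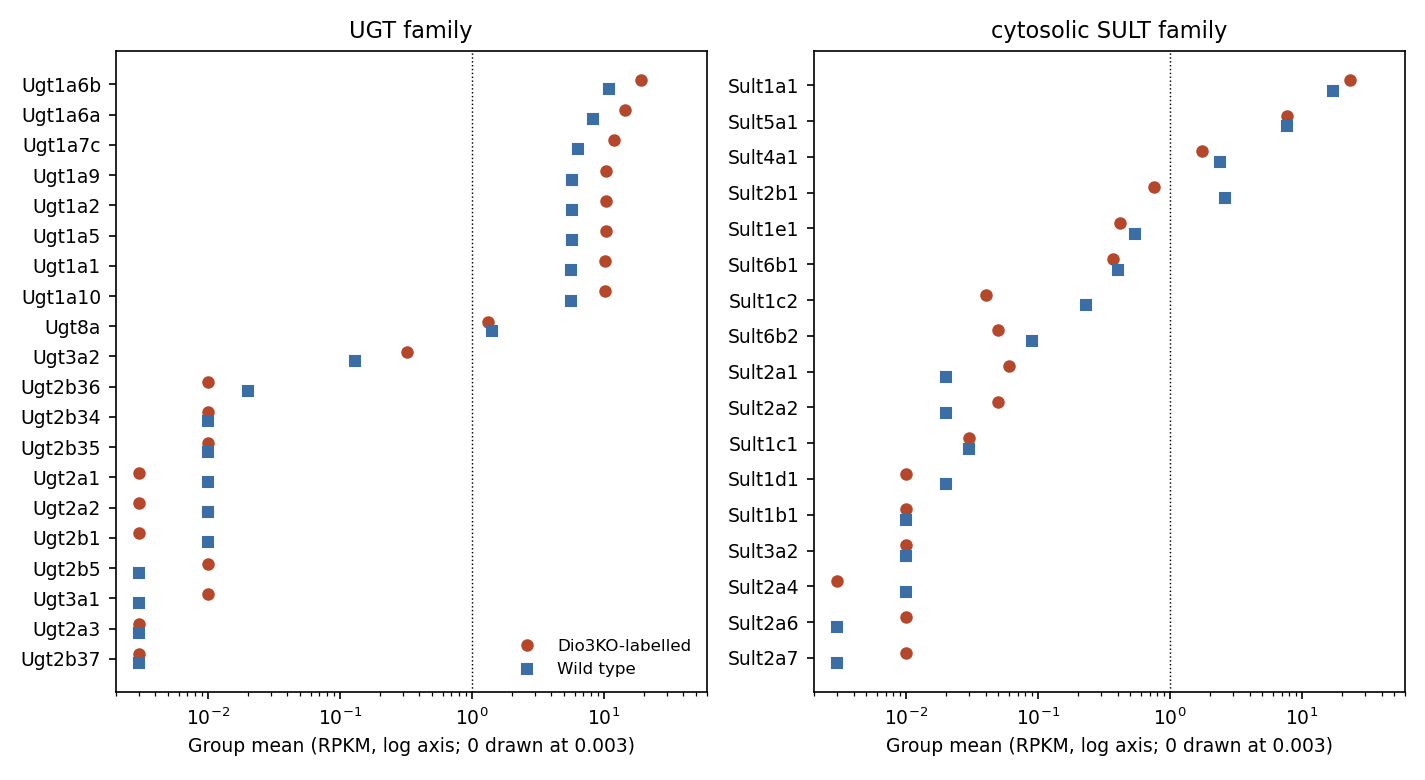
Group means in RPKM, on a log axis, of all genes of both enzyme families in the table, with circles for Dio3KO-labelled and squares for wild-type testes, a dotted line at 1 RPKM, and means of 0 drawn at 0.003. The Ugt1a genes form the upper block on the left with every circle right of its square, and on the right Sult2b1 is the expressed sulfotransferase with the widest gap in the other direction.

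Of 17 cytosolic sulfotransferase genes in the table, 4 reached 1 RPKM, of which 1 rose, Sult1a1, and 1 fell. The gene that fell was Sult2b1 (chromosome 7), which sulfates cholesterol and hydroxysteroids. Its best expressed transcript was at 0.76 RPKM (CV 0.17) in Dio3KO-labelled testes and 2.60 RPKM (CV 0.19) in wild-type testes, with a log2 ratio of -1.30 ± 0.14 (SE from the CVs) and, in the authors' deposited table, an adjusted p of 0.0211. Its other transcript was at 0.69 RPKM (CV 0.18) in Dio3KO-labelled testes and 2.39 RPKM (CV 0.18) in wild-type testes. Sult5a1, at 7.63 RPKM (CV 0.05) in Dio3KO-labelled testes and 7.72 RPKM (CV 0.26) in wild-type testes, did not pass and neither did Sult4a1. The family's median log2 ratio was -0.19, and 15.9% of all genes were lower at this threshold in the authors' deposited table.

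For the genes around the donors of both reactions, the count past the threshold depended on the test. Of 9 genes around the supply and use of UDP-glucuronate and UDP-galactose, 2 rose and 0 fell in the authors' deposited table. There, 14.0% of all genes were higher and 15.9% lower. By limma 5 of the 9 were higher and 1 was lower, where limma called 18.6% of all genes higher and 23.2% lower. The median log2 ratio of the 9 was 0.20. The risers were Ugp2, which makes UDP-glucose (53.71 RPKM in KO and 46.82 RPKM in WT), and the gene deposited as Pgm1 (15.81 RPKM in KO and 11.54 RPKM in WT). Ugdh, which oxidises UDP-glucose to the donor of the Ugt1a enzymes, was at 18.47 RPKM in Dio3KO-labelled testes and 20.76 RPKM in wild type and did not pass. Neither did Uxs1, which uses up UDP-glucuronate (56.34 RPKM in KO and 42.97 RPKM in WT), or Pgm2 (30.44 RPKM in KO and 30.30 RPKM in WT). Of 9 genes for PAPS and sulfate supply, 1 rose and 0 fell, by limma 2 were higher and 3 lower, and the median log2 ratio was 0.00. The riser was the sulfate transporter Slc13a4, at 1.63 RPKM in Dio3KO-labelled testes and 0.50 RPKM in wild type. The PAPS synthase Papss1 (38.18 RPKM in KO and 43.61 RPKM in WT), the PAPS transporter Slc35b2 (25.87 RPKM in KO and 24.69 RPKM in WT) and the phosphatase Bpnt1 (21.21 RPKM in KO and 22.63 RPKM in WT) did not pass.

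Among 15 genes that remove sulfate or glucuronate or activate sulfatases, 4 rose and 0 fell, beside the 14.0% of all genes that were higher and the 15.9% that were lower, and the median log2 ratio was 0.19. The steroid sulfatase gene Sts was not matched among the deposited symbols and so is not among the 15. The risers were the beta-glucuronidase Gusb (28.39 RPKM in KO and 24.89 RPKM in WT), Sumf1, which activates sulfatases (23.83 RPKM in KO and 20.71 RPKM in WT), and the heparan sulfate-directed Sulf2 (78.41 RPKM in KO and 60.31 RPKM in WT) and Sgsh (10.74 RPKM in KO and 7.79 RPKM in WT). Sumf2 (42.46 RPKM in KO and 44.78 RPKM in WT) and Sulf1 (24.10 RPKM in KO and 15.31 RPKM in WT) did not pass. Of 5 transporters that export conjugates, 3 rose and 1 fell, against the same shares of all genes. Abcc1, a pump for glutathione and glucuronide conjugates, was at 40.87 RPKM in Dio3KO-labelled testes and 26.19 RPKM in wild type, followed by Abcc4 (4.26 RPKM in KO and 3.16 RPKM in WT) and Abcc3 (1.90 RPKM in KO and 1.24 RPKM in WT). Abcg2, which exports sulfated steroids, fell to 15.82 RPKM in Dio3KO-labelled testes, against 17.81 RPKM in wild type, Abcc5 (12.54 RPKM in KO and 12.32 RPKM in WT) did not pass, and the median log2 ratio was 0.38.

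The list around Ugt8a, galactolipid and sulfatide turnover, had 4 of 10 genes rise and 0 fall, where 14.0% of all genes were higher and 15.9% lower, and the median log2 ratio was 0.20. They were the lysosomal activator Psap (378.14 RPKM in KO and 285.15 RPKM in WT), the ceramide synthases Cers4 (16.13 RPKM in KO and 11.54 RPKM in WT) and Cers2 (52.91 RPKM in KO and 47.42 RPKM in WT) and the sphingomyelin synthase Sgms1 (25.47 RPKM in KO and 21.23 RPKM in WT). Degs1 (38.87 RPKM in KO and 35.94 RPKM in WT), Ugcg (26.12 RPKM in KO and 25.37 RPKM in WT) and Arsa (4.45 RPKM in KO and 3.55 RPKM in WT) did not pass. Gal3st1, which sulfates the product of Ugt8a, was at 0.08 RPKM in Dio3KO-labelled testes and 0.07 RPKM in wild type, below the level at which calls were counted. Of 22 sulfotransferases of the Golgi, which sulfate proteins and glycans rather than hormones, 4 rose and 3 fell, near those shares, and the median log2 ratio was -0.07. Tpst1, a protein-tyrosine sulfotransferase, rose to 71.11 RPKM in Dio3KO-labelled testes, against 45.54 RPKM in wild type, and so did Chst15 (6.41 RPKM in KO and 3.22 RPKM in WT) and Ust (5.33 RPKM in KO and 3.43 RPKM in WT). The heparan sulfate 6-sulfotransferase Hs6st2 fell to 13.93 RPKM in Dio3KO-labelled testes, against 24.91 RPKM in wild type, while Ndst1 (52.31 RPKM in KO and 45.82 RPKM in WT), Hs6st1 (19.60 RPKM in KO and 26.84 RPKM in WT) and Tpst2 (16.49 RPKM in KO and 15.35 RPKM in WT) did not pass.

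Of 10 regulators and companion targets of conjugation genes, 4 rose and 1 fell, with 14.0% higher and 15.9% lower over all genes, and the median log2 ratio was 0.09. Cyp1b1, a target of the dioxin receptor Ahr, rose to 12.16 RPKM in Dio3KO-labelled testes (CV 0.17), against 5.36 RPKM in wild type (CV 0.35), and so did Tiparp, another such target (20.24 RPKM in KO and 15.96 RPKM in WT). Ahr itself (3.09 RPKM in KO and 3.15 RPKM in WT) did not pass. Other list genes tied to Ahr did not reach 1 RPKM. They were Cyp1a1 (0.01 RPKM in KO and 0.02 RPKM in WT), Cyp1a2 (0.09 RPKM in KO and 0.10 RPKM in WT) and Ahrr (0.32 RPKM in KO and 0.48 RPKM in WT). Whether Ahr activity differed was not tested. Nfe2l2, the transcription factor of the antioxidant response, rose to 57.19 RPKM in Dio3KO-labelled testes, against 41.64 RPKM in wild type, and so did the lipid-sensing receptor Ppara (1.47 RPKM in KO and 1.17 RPKM in WT). Nqo1, a target of both Ahr and Nfe2l2, fell to 5.94 RPKM in Dio3KO-labelled testes, against 7.29 RPKM in wild type. Rxra (21.80 RPKM in KO and 23.87 RPKM in WT), Keap1 (19.12 RPKM in KO and 18.43 RPKM in WT) and Arnt (13.25 RPKM in KO and 14.40 RPKM in WT) did not pass, and the xenobiotic receptor Nr1i2 was at 0.03 RPKM in both groups. Around the estrogens that Sult1e1 inactivates, 1 of 7 genes rose and 1 fell, again near the shares over all genes, and the median log2 ratio was 0.10. The estrogen receptor Esr1 rose to 12.23 RPKM in Dio3KO-labelled testes, against 8.82 RPKM in wild type. Hsd17b1, which reduces estrone to estradiol, fell to 14.11 RPKM (CV 0.45) in Dio3KO-labelled testes, against 73.91 RPKM (CV 0.24) in wild type, and the aromatase gene Cyp19a1 was near 0 (0.06 RPKM in KO and 0.03 RPKM in WT). Hsd17b12 (56.40 RPKM in KO and 61.79 RPKM in WT), Hsd17b7 (7.76 RPKM in KO and 7.20 RPKM in WT) and Esrra (7.18 RPKM in KO and 5.70 RPKM in WT) did not pass.

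**Figure D4:**
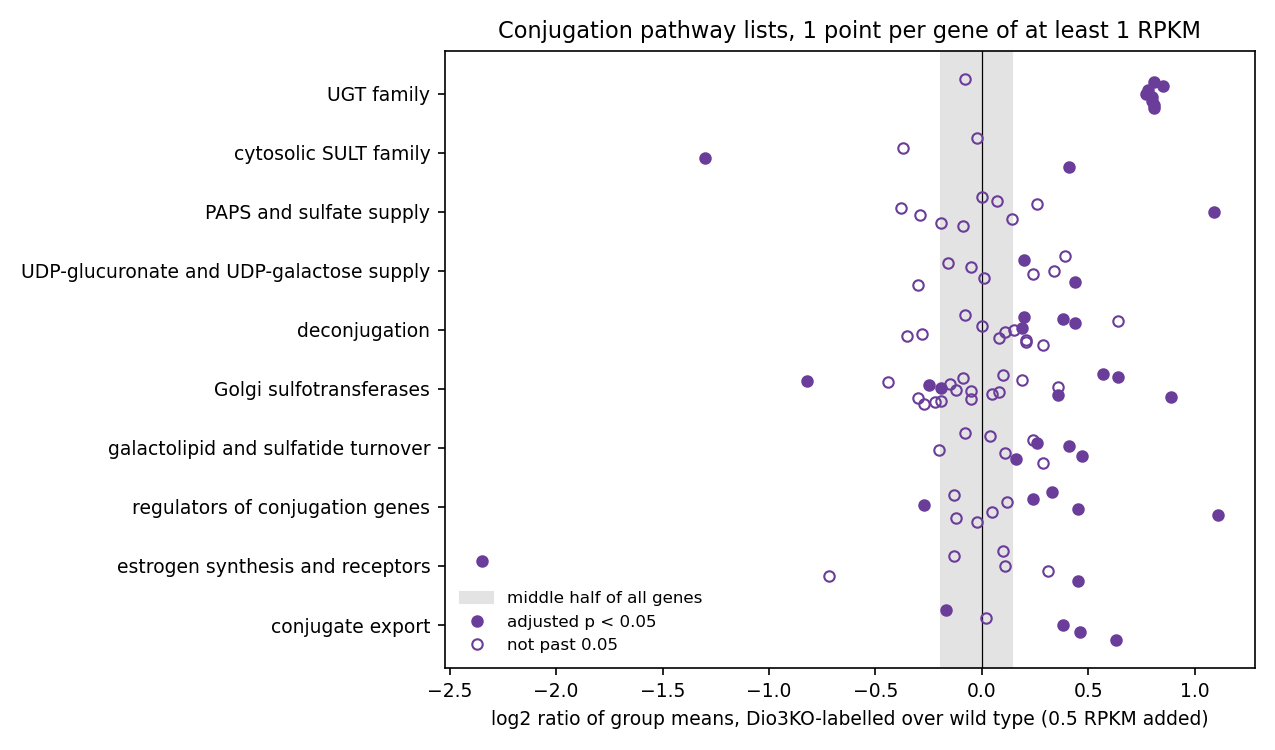
Log2 ratio of the group means, Dio3KO-labelled over wild type, for each gene of at least 1 RPKM in 10 lists, with filled points for an adjusted p below 0.05 and a grey band for the middle part of all genes, from -0.19 to 0.14. The 8 Ugt1a genes form a tight cluster near 0.80, while the other lists spread over both sides of 0.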

How the data were processed

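Whole-testis RNA of 8 samples, 4 labelled Dio3KO and 4 wild type, was analysed from a single table. The authors deposited group means in RPKM, the CV of each group (a ratio, SD over mean) and adjusted p-values comparing both groups, per the file headers. FastQC, Novoalign 2.08 and mm10 are listed, with no role, by the submitters' processing notes. Of the counter, annotation, strandedness and test, nothing is given in the sources used here. Depth per sample is unknown, and 4 samples per group limit the precision.

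Each line stood 3 times in the 147417 lines; repeats were dropped. Members were matched by symbol, ignoring case. For counts by gene, older symbols were merged through RefSeq (GRCm38.p6) and the best expressed transcript stood for its gene; calls were counted over the 15225 genes reaching 1 RPKM in Dio3KO-labelled or wild-type testes. Calls are adjusted p-values below 0.05 in the authors' deposited table, and "rose" and "fell" are kept for these. Log2 ratios were computed with 0.5 RPKM added, which understates low genes, and their SE from the CVs (n = 4, delta method). CVs are rounded to 2 decimals. As an alternative, variances from the CVs were shrunk with limma 3.58.1 (squeezeVar, R 4.3.3, 6 residual degrees of freedom, a CV of 0 set to 0.0025), which was tested on simulated data.

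Annotated lengths, positions and Ugt1a sequences came from GENCODE M21, aligned with Biopython 1.88. Members and lists were chosen with earlier results of these data known. Beyond the members, Dio3 is named and, from each list, the 4 smallest p values past the threshold and up to 3 genes of highest level not past it, or all past it where there are 5 or fewer, and 1 gene that this rule names is not reported here. Genes named outside that rule, chosen after their values were seen, are the other Ugt1a genes, Gal3st1, Ahr, Ahrr, Cyp1a1, Cyp1a2, Nr1i2, Cyp19a1, Ugt3a2, Sox10, Foxd3, Mrap, Cyp21a1, Cyp11b1, Gm20528, Sgf29 and, in the closing section, Sult1c2 and Nr1h4. Sts, for which no value was found, is also named outside that rule. The series' design calls the replicates biological without tying each to its own animal. The p-values therefore set the group difference against the spread between these samples, which may be smaller than the spread between animals.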

Additional observations from a re-analysis of the deposited data

How the results depend on the processing

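Log2 ratios of the 7 members kept their sign with 0.1 or 1 RPKM added, centred on the median of all genes, scaled to equal sums and with transcripts summed (which counts shared exons repeatedly), except that Ugt8a, which did not pass the threshold, came to 0.00 with equal sums. Equal sums shift ratios by 0.10 and moved Ugt1a1 to 0.90, Ugt1a2 to 0.89, Ugt1a6a to 0.86 and Sult1a1 to 0.51, each by more than its SE and Sult1a1 also by more than its SD. No call of a member changed under the moderated limma test, which does not cover Sult1e1. A ratio of at least 2 in place of the p, which no Ugt1a member reaches, left 237 genes higher and 113 lower, against 2127 and 2421, and, added after the data were seen, 460 and 177 transcripts, against 4853 and 5499. With no filter, 2 sulfotransferases were lower (Sult1c2 added), and 5 regulators were higher (Nr1h4 added, 0.91 RPKM in Dio3KO-labelled and 0.28 RPKM in wild-type testes) and 2 lower (Ahrr added). With at least 2 RPKM, 0 PAPS and sulfate supply genes were higher. Under the moderated limma test, which called 18.6% of all genes higher and 23.2% lower, that list had 2 higher and 3 lower of 9. The same test gave 5 higher and 1 lower of 9 UDP-sugar genes, and 6 higher and 1 lower of 15 for deconjugation. It gave 5 higher and 5 lower of 22 Golgi sulfotransferases, 6 higher and 0 lower of 10 for galactolipid turnover, and 2 higher and 2 lower of 7 estrogen genes. Without the filter, when genes below 1 RPKM enter, the median log2 ratio of the UDP-glycosyltransferase list was 0.03, that of conjugate export 0.12 and that of the regulators 0.00. No paired analysis was possible because the table holds group means only, so the fit with a replicate block and leaving out replicates were not run.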

Other observations

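Upstream windows of 250 bases before the RefSeq start (GRCm38.p6) were held for 6 of the 7 members, and 3 short motifs were searched in them on both strands. The nuclear receptor half-site AGGTCA stood in 1 of the 6, that of Sult1e1, and in 14.0% of all 32851 windows. The pentamer GCGTG, the core bound by the dioxin receptor, stood in 1 of the 6, that of Ugt8a, and in 28.2% of all windows. The antioxidant core TGACNNNGC, where N is any base, was in 0 of the 6 and in 10.2% of all windows. A match of these letters is a description of the window and no evidence of binding.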
